A study of Mus musculus with 18 samples.

Results

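Astrocytes clear water, potassium and bicarbonate from the space around neurons and share small molecules with one another through gap junctions. The 9 genes described here encode proteins for these tasks, namely *Aqp4*, *Kcnj10*, *Mlc1*, *Hepacam*, *Atp1b2*, *Slc4a4*, *Gja1*, *Gjb6* and *Gjb2*. They were taken by symbol from a count table of 51912 genes. All 9 were found, and all passed the minimum of 10 read pairs over the 18 libraries, although *Gjb6* had only 42 read pairs in all IP and 18 in all input libraries, and *Gjb2* 92 and 61. Beside them, 96 other genes of the same roles were counted, of which 91 passed that minimum.

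The libraries came from primary cortical astrocyte cultures of newborn mice (postnatal day 0) of both sexes. All groups were hemizygous for the transgene Tg(Aldh1l1-EGFP/Rpl10a)JD130Htz, from a B6;FVB line crossed with C57BL/6J, in which the *Aldh1l1* promoter, active in astrocytes, drives a ribosomal protein tagged with EGFP. In translating ribosome affinity purification (TRAP), antibodies against EGFP pull down tagged ribosomes with their mRNA (the IP fraction), while the input fraction is the RNA of the cleared lysate of all cells in the dish. After 14 days to confluence and 6 days in new 100 mm dishes, cells were kept without serum for 24 h and then for 24 h in serum-free medium with 50 mM ethanol or without it (0 mM, control). The groups were 6 IP control, 6 IP ethanol, 3 input control and 3 input ethanol libraries, and each input library shares its dish with the IP library of the same treatment and replicate number (4 to 6). Nothing states that dishes of a treatment came from separate cultures, so p-values for ethanol within a fraction measure the spread between dishes. Those for IP vs. input and for the interaction of fraction and treatment measure the spread between libraries. In these main fits both fractions of a dish entered as separate libraries.

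AQP4 is the main water channel of the brain and sits in the end feet that astrocytes place on blood vessels, anchored by the dystrophin complex. KCNJ10 (Kir4.1) is the inward rectifier potassium channel through which astrocytes take up potassium, alone or together with KCNJ16 (Kir5.1). MLC1 and HEPACAM (GlialCAM) form a membrane complex that controls cell volume, and loss of either causes a leukodystrophy with cysts and swelling. ATP1B2 is a beta subunit of the sodium pump, typical of glia. SLC4A4 (NBCe1) carries sodium and bicarbonate together. GJA1 (connexin 43) and GJB6 (connexin 30) are the main gap-junction proteins of mature astrocytes, with GJB2 (connexin 26) as a minor one.

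Each library held from 74239854 to 132810705 read pairs assigned to genes. *Aldh1l1* itself was read at 367 to 395 CPM (the read-pair count scaled to a common library size with TMM) in IP control and at 186 to 194 CPM in input control libraries. Of 10 astrocyte markers, 8 were higher and 1 lower in IP than in input, while 8 of 9 microglia markers were lower, with a summed level of 14.5 to 15.9 CPM in IP control and 82.8 to 87.0 CPM in input control libraries. The scarcest marker in the list of each other cell type was *Mog* (mature oligodendrocytes) at 0 to 10 read pairs, *Snap25* (neurons) at 0 to 11, *P2ry12* (microglia) at 1 to 14, *Lum* (fibroblasts) at 0 to 17, *Tmem212* (ependymal cells) at 0 to 9 and *Cldn5* (endothelium) at 0 in every library. Other genes of these lists were abundant. The highest of each list in IP control were *Acta2* (a smooth-muscle actin listed as a mural marker) at a mean of 1589 CPM, *Foxj1* (ependymal) at 433, *Cnp* (oligodendrocyte lineage) at 132, *Stmn2* (neurons) at 108, *Col1a2* (fibroblasts) at 54.3 and *C1qb* (microglia) at 3.83 CPM. In input control *C1qb* had 17.3 CPM, but the highest of their lists there were *Csf1r* (microglia) at 23.1 and *Col1a1* (fibroblasts) at 142.9 CPM. The summed fibroblast markers had 236.5 to 241.5 CPM in input control beside 127.8 to 143.2 CPM in IP control.

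To compare levels between genes, CPM was divided by the length of the longest annotated transcript in kilobases (CPM per kb). In IP control libraries (n = 6) *Mlc1* had the highest level of the 9 genes, 266 ± 3.28 CPM per kb (SD), above 99.3% of the 24424 genes ranked. *Aqp4* (GRCm38, chr18:15389496-15410982, minus strand) followed at 51.6 ± 1.24 CPM per kb, *Atp1b2* at 42.8 ± 1.27 and *Hepacam* at 40.6 ± 0.486 CPM per kb. *Gja1* had 25.1 ± 0.750, *Slc4a4* 24.3 ± 0.938 and *Kcnj10* 16.2 ± 0.767 CPM per kb, so the lowest of these 7 genes was still above 82.5% of all genes ranked. *Gjb2* and *Gjb6* stood far below, at 0.0258 ± 0.0201 and 0.0150 ± 0.00999 CPM per kb. Of the neighbours in this order, only *Gja1* with *Slc4a4* and *Gjb2* with *Gjb6* had overlapping ranges, although *Gja1* was above *Slc4a4* in 6 of 6 libraries. Read per length of the union of all exons, *Gja1* had 9.51 and *Slc4a4* 17.8 CPM per kb, below and above *Kcnj10* respectively, and *Atp1b2* had 39.3, below *Hepacam* at 40.6, so these places in the order rest on the transcript model.

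**Figure D1:**
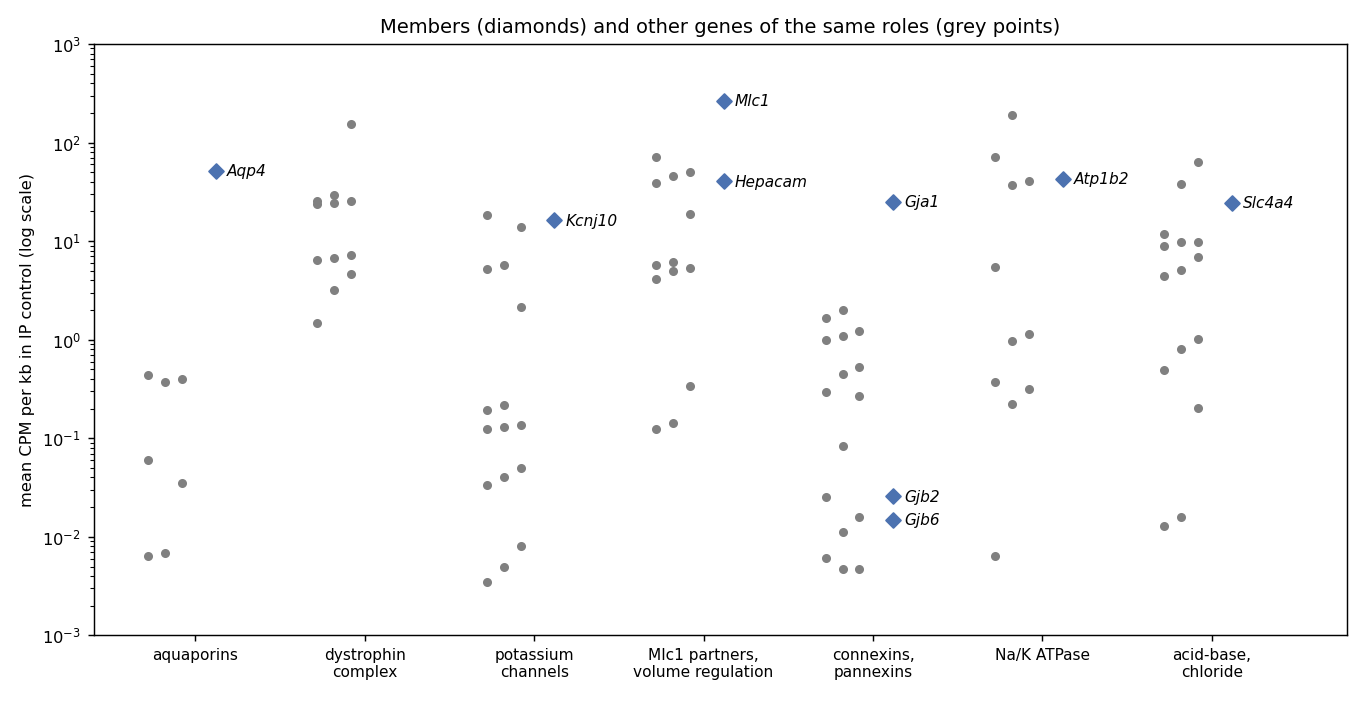
Mean level in the 6 IP control libraries, as CPM per kb of the longest transcript on a log scale, of the 9 genes (diamonds) and of the 91 tested genes with the same roles (grey points). *Gja1* lies above every other connexin and pannexin, *Aqp4* above every other aquaporin and *Mlc1* above every other gene shown, while *Gjb2* and *Gjb6* lie in the lower part of their list.

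Among the other genes of each role except the sodium pump, the highest in CPM per kb of IP control were *Dag1* (dystroglycan, 153.01), *Gprc5b* (a receptor found with MLC1, 71.4), *Slc12a4* (a potassium-chloride cotransporter, 64.0), *Kcnk2* (the leak potassium channel TREK1, 18.3), *Gjc1* (connexin 45, 2.00) and *Aqp11* (an intracellular aquaporin, 0.439). *Kcnj16*, the known partner of *Kcnj10*, was low, at 0.798 ± 0.159 CPM in IP control (SD, n = 6). Per kb, *Kcnj10* exceeded *Kcnj16* by 77.3 ± 13.6 times in the same libraries. In contrast, the beta subunits *Atp1b2* and *Atp1b1* were read at nearly equal levels in IP control, with a ratio of 1.06 ± 0.0402. In input control (n = 3) the ratio of *Kcnj10* to *Kcnj16* was 37.6 ± 10.1 and that of *Atp1b2* to *Atp1b1* 0.877 ± 0.0120. *Kcnj16* and *Atp1b1* were chosen after their values were seen.

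The comparison of IP with input addresses which of these mRNAs are found on ribosomes of tagged cells more than in the whole lysate. The 7 genes that were read well were all higher in IP, by 1.23 to 1.87 times, and their IP and input libraries did not overlap. *Kcnj10* differed most, with 77.8 to 92.6 CPM (median 86.2) in 12 IP and 43.9 to 48.1 CPM (median 46.3) in 6 input libraries, a log2 fold change of 0.90 ± 0.0294 (SE). *Atp1b2* had 155.9 to 191 CPM (median 168.3) in IP and 97.5 to 113 CPM (median 104) in input, a log2 fold change of 0.73 ± 0.0248. *Mlc1* had 729 to 840 CPM (median 758) in IP and 447 to 484 CPM (median 471) in input, a log2 fold change of 0.71 ± 0.0198. For all 3 genes the lowest IP library lay far above the highest input library. *Hepacam* had 133.3 to 154.7 CPM (median 144) in IP and 90.4 to 102 CPM (median 97.3) in input, with a log2 fold change of 0.58 ± 0.0202. *Aqp4* had 251 to 327 CPM (median 282) in IP and 183 to 213 CPM (median 194) in input, with a log2 fold change of 0.53 ± 0.0205. Both proteins are membrane proteins of the astrocyte end foot. *Slc4a4* had 171 to 216 CPM (median 194) in IP and 140 to 147.5 CPM (median 145.1) in input, with a log2 fold change of 0.42 ± 0.0372. *Gja1* differed least, with 93.7 to 104 CPM (median 98.4) in IP and 77.7 to 82.2 CPM (median 79.97) in input, a log2 fold change of 0.30 ± 0.0215.

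**Figure D2:**
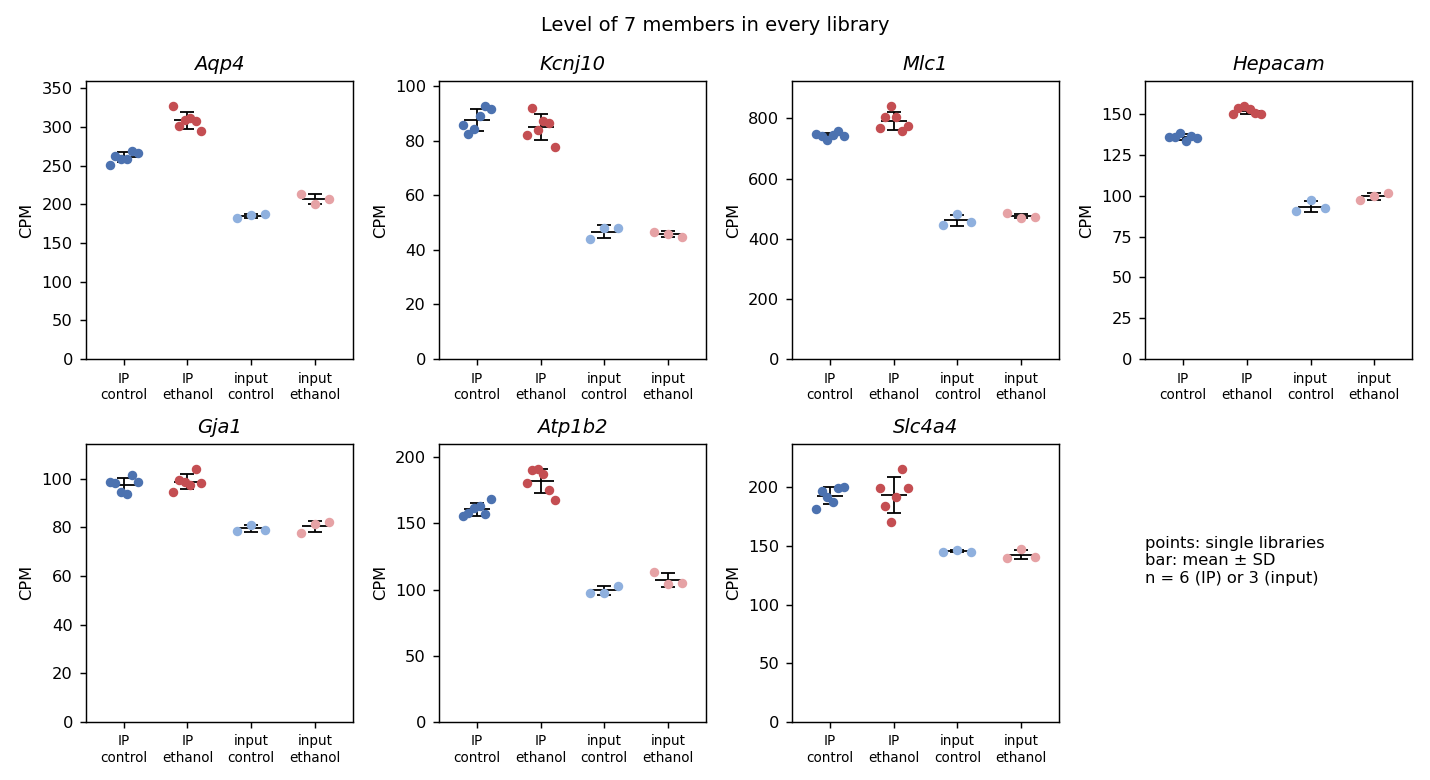
CPM of 7 genes in every library of the 4 groups (points), with the mean and SD as black bars (n = 6 for IP and 3 for input), on axes that start at 0. In each panel the IP libraries lie above the input libraries. *Aqp4*, *Hepacam* and, by a narrow gap, *Mlc1* also show IP ethanol above IP control with no overlap.

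By edgeR's quasi-likelihood test with Benjamini-Hochberg adjustment over 24495 genes, these 7 differences had adjusted p-values from 5.25e-44 for *Mlc1* to 1.22e-08 for *Slc4a4*. *Aldh1l1*, whose promoter drives the tag, had a log2 fold change of 1.05 ± 0.0216, with a 95% interval of 1.004 to 1.09 that lies above the interval of *Kcnj10*, 0.84 to 0.96. *Gjb6* and *Gjb2* did not pass the threshold, with intervals of the log2 fold change from -0.86 to 1.55 and from -1.22 to 0.30. IP vs. input calls were common, since 51.0% of all genes tested passed and 25.2% were higher in IP. Groups did not overlap with IP higher in 13.1% of genes. Of the 4694 genes that averaged 50 CPM or more, a limit chosen after the values were seen that all 7 genes meet, 59.6% were called higher in IP, so 7 of 7 stands beside a background in which such calls are frequent. Tested against a fold of 1.2 instead of no change, *Gja1* no longer passed (adjusted p = 0.0885), while the other 6 did. Of the microglia markers 8 of 9 were lower in IP, and of the fibroblast and meningeal markers 6 of 8 were lower and 2 higher. Markers of the other cell types differed in both directions. The part of these cell types in the differences above was not tested. In such bulk libraries fewer cells of a type and less RNA per cell cannot be told apart.

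**Figure D3:**
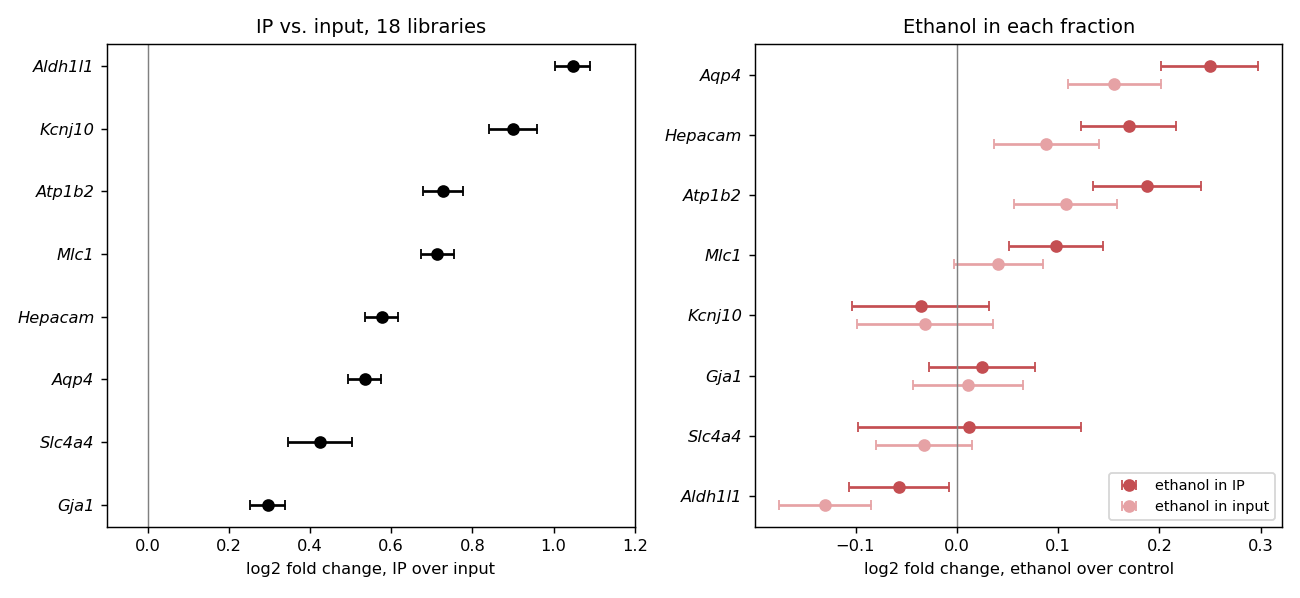
Log2 fold changes with 95% intervals of 7 genes and *Aldh1l1*, on the left for IP over input (18 libraries) and on the right for ethanol over control in IP (12 libraries) and input (6 libraries). All 7 genes lie between 0.30 and 0.90 on the left, below *Aldh1l1* at 1.05, and *Aqp4*, *Hepacam* and *Atp1b2* lie above 0 in both fractions on the right.

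Of the 91 tested genes with the same roles, 33 were higher and 29 lower in IP than in input, with a median log2 fold change of -0.02 beside -0.03 over all genes tested. The 9 genes had a median of 0.53, which includes the 2 scarce connexins. Over all genes tested 51.0% passed and 25.2% were higher in IP, and the counts by role are to be read beside these shares. Among genes that averaged 50 CPM or more 59.6% were higher in IP, and the lists hold both abundant and scarce genes. In the dystrophin complex, which anchors AQP4, 8 of 12 genes were higher in IP and 1 lower, with *Dtna* (dystrobrevin alpha) at 0.50 ± 0.0204 on the log2 scale (adjusted p = 1.003e-33) and *Dag1* at 0.45 ± 0.0176. Of 16 potassium channels, 4 were higher, led by *Kcnk1* (TWIK1) at 0.80 ± 0.0331 (adjusted p = 4.42e-33), and 2 were lower. Of 13 genes for partners of MLC1 and volume regulation, 6 were higher and 5 lower, with the largest difference in *Trpv4* (an osmotically sensitive calcium channel) at -1.49 ± 0.0862 (adjusted p = 2.10e-25). Of 11 sodium pump genes, 6 were higher and 4 lower, the latter led by *Fxyd5* (a pump regulator) at -1.51 ± 0.0571 (adjusted p = 6.98e-36). Of 15 genes of acid-base and chloride transport, 7 were higher and 5 lower, the largest difference being that of *Slc4a5* (a sodium bicarbonate cotransporter) at -1.21 ± 0.289 (adjusted p = 2.34e-04). *Slc4a5* was scarce, with 2 to 21 read pairs per IP library and 13 to 36 per input library.

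Beside *Aqp4* and *Gja1*, the lists of water channels and gap-junction genes held more genes lower in IP than higher. Of 7 other aquaporins, 3 were lower in IP, and *Aqp8* was called higher with only 16 read pairs in 12 IP libraries and 0 in 6 input libraries, which allows up to 3, so no fold is given. Of 17 tested connexins and pannexins beside the 3 described here, 9 were lower in IP and 1 higher, with a median log2 fold change of -0.62. *Gjc1* had 6.84 CPM in IP control and 11.1 CPM in input control and a log2 fold change of -0.66 ± 0.0447 (adjusted p = 7.43e-22). Apart from *Gja1*, no connexin gene had a higher mean in the control dishes of either fraction than these 11.1 CPM.

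Of the 3 gap-junction genes *Gja1* alone was read in quantity. It had 93.7 to 101 CPM in IP control, whereas *Gjb6* had 0 to 4 read pairs and *Gjb2* 1 to 11 read pairs in each of these libraries. In the 2 libraries where *Gjb6* had 0 read pairs, IP control replicate 3 and input control replicate 4, that count allows a level of up to 0.0362 and 0.0342 CPM (counting error only). Over all 18 libraries *Gjb6* ranged from 0 to 8 read pairs and *Gjb2* from 1 to 18. Neither passed the test for fraction or treatment, and smaller changes than their wide intervals allow were not detectable at this depth. *Gjb2* (GRCm38, chr14:57098600-57104702) and *Gjb6* (chr14:57123303-57133611) are neighbours on the minus strand, and *Gja1* lies on the plus strand at chr10:56377330-56402513.

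The 250 bases upstream of the RefSeq start of each of these genes (GRCm38.p6, printed 5′ to 3′ along the gene's strand) are shown because the data separate an abundantly read connexin gene from a pair that is almost unread. On both strands 6 motifs were searched, and matches are in capitals. One was the GC box, which is GGGCGG, another the TATA box with the letters TATAAA. The AP-1 site was written as TGANTCA, where N is any base, and the STAT site as TTCNNNGAA. The E box was CACGTG. For nuclear factor I the shorter site TTGGCA was used.
*Gja1*, chr10:56377050-56377299, plus strand: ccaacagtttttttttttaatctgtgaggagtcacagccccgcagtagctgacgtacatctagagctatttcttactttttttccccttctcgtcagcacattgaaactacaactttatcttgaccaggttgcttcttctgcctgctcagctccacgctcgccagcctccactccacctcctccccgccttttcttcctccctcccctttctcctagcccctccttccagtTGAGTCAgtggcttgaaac
*Gjb6*, chr14:57133612-57133861, minus strand: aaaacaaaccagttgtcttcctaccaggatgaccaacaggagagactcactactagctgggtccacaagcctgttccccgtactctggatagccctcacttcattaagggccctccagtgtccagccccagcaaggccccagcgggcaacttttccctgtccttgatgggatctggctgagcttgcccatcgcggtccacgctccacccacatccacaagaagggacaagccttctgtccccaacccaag
*Gjb2*, chr14:57104703-57104952, minus strand: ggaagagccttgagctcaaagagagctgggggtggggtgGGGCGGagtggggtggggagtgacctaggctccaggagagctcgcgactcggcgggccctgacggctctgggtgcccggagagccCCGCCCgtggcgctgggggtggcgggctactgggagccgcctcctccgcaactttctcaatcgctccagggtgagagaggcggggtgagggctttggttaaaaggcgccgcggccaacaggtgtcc
The *Gja1* window held 1 AP-1 match, which starts 19 bases before the start and was found in 6.75% of the 32851 windows of the same length. The *Gjb2* window held 2 GC boxes, of which at least 1 was found in 32.7% of windows, and the *Gjb6* window held none of the 6 motifs. GC content was 50.0% in *Gja1*, 56.8% in *Gjb6* and 69.2% in *Gjb2*, beside a median of 52.4%. The *Gjb2* window had 18 CpG, those of *Gja1* and *Gjb6* had 6 and 5, and the median was 6. The window richest in CpG belonged to a gene with almost no reads. A link between these windows and the read levels was not tested.

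In the IP fraction, 24 h of ethanol went with higher levels of 4 of the 9 genes, by 1.07 to 1.19 times. *Aqp4* moved most. It had 251 to 269 CPM (median 261) in IP control and 294 to 327 CPM (median 309) in IP ethanol, with no overlap and a log2 fold change of 0.25 ± 0.0241 (adjusted p = 1.77e-12, edgeR). *Hepacam* (chr9:37367351-37386575, plus strand) had 133.3 to 138.3 CPM (median 136) in control and 150 to 154.7 CPM (median 151.9) in ethanol, also without overlap, with a log2 fold change of 0.17 ± 0.0233 (adjusted p = 5.19e-08). In both genes every ethanol dish lay above every control dish. *Atp1b2* (chr11:69599736-69605942, minus strand) had 155.9 to 168.5 CPM (median 159.7) in control and 168.1 to 191 CPM (median 184) in ethanol, a log2 fold change of 0.19 ± 0.0267 (adjusted p = 1.86e-07), with an overlap because ethanol replicate 6 (168.1 CPM) lay just under control replicate 6 (168.5 CPM). *Mlc1* (chr15:88955884-88979007, minus strand) had 729 to 757 CPM (median 744) in control and 758 to 840 CPM (median 791) in ethanol. Its log2 fold change was 0.10 ± 0.0231 (adjusted p = 9.12e-04), and the groups were separated by a gap smaller than their spread.

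The other 5 genes did not pass the threshold in IP. *Kcnj10* (chr1:172341210-172374085, plus strand) had 82.4 to 92.6 CPM (median 87.4) in control and 77.8 to 92.0 CPM (median 85.4) in ethanol, a log2 fold change of -0.04 with a 95% interval of -0.10 to 0.03. *Gja1* had 93.7 to 101 CPM (median 98.4) in control and 94.5 to 104 CPM (median 98.6) in ethanol, and its interval was -0.03 to 0.08. *Slc4a4* (chr5:88886818-89239653, plus strand) had 181 to 201 CPM (median 194) in control and 171 to 216 CPM (median 196) in ethanol, and its interval was -0.10 to 0.12. For each of these 3 genes the groups overlapped widely, and the upper limit of the interval lay below the estimate for *Aqp4*. *Gjb6* and *Gjb2* had 0 to 8 and 1 to 18 read pairs per IP library.

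As background, 21.4% of all genes passed for ethanol in IP and 11.9% were higher with ethanol, while the groups did not overlap with ethanol higher in 5.09%. Of the genes that averaged 50 CPM or more, 24.8% were called higher with ethanol. The 4 called genes of 7 at that level stand beside this share. All 4 changes were small, and none passed a test against a fold of 1.2. In the same libraries the summed level of endothelial and mural markers, nearly all of it *Acta2*, went from 1631 to 1764 CPM in IP control to 1056 to 1251 CPM in IP ethanol (2 of 8 tested markers called lower, none higher). The summed astrocyte markers were at 2123 to 2187 and 2146 to 2242 CPM (3 of 10 called higher, 2 lower), and *Aldh1l1* had a log2 fold change of -0.06 (adjusted p = 0.0934). The part of these shifts in the differences above was not tested.

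The 12 IP dishes fall into replicates 4 to 6, which also gave input libraries, and replicates 1 to 3, which did not. *Aqp4* had a log2 fold change of 0.28 ± 0.0343 in replicates 1 to 3 and 0.20 ± 0.0302 in replicates 4 to 6, and *Hepacam* 0.16 ± 0.0362 and 0.16 ± 0.0324. *Atp1b2* had 0.24 ± 0.0355 and 0.12 ± 0.0316, so these 3 genes passed in both sets. *Mlc1* passed in replicates 1 to 3 (0.12 ± 0.0328) but not in replicates 4 to 6 (0.06 ± 0.0283, adjusted p = 0.139). *Kcnj10* had 0.04 ± 0.0387 in replicates 1 to 3 and fell by 0.12 on the log2 scale in replicates 4 to 6 (SE 0.0347, adjusted p = 0.00874), which did not hold over all 12 libraries. The difference between the sets was not tested. The labels give no batch, and the 2 sets differ in their labels only in replicate number.

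**Figure D4:**
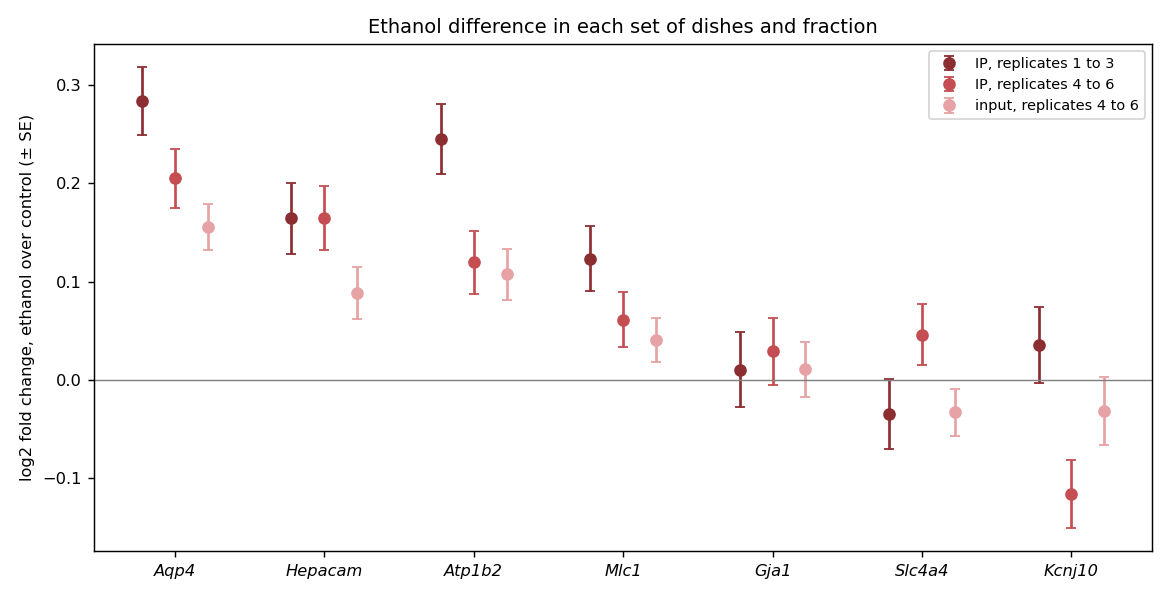
Log2 fold change of ethanol over control (± SE) for 7 genes in IP replicates 1 to 3, IP replicates 4 to 6 and input replicates 4 to 6, with 3 control and 3 ethanol libraries each. *Aqp4*, *Hepacam*, *Atp1b2* and *Mlc1* lie above 0 in all 3 sets, and *Kcnj10* lies at 0.04, -0.12 and -0.03.

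In the input fraction of 6 of these dishes, 3 of the 4 genes called in IP were higher with ethanol, and none of the other 6 passed. *Aqp4* had 183, 186 and 187 CPM in the 3 control dishes and 213, 201 and 207 CPM in the 3 ethanol dishes (replicates 4 to 6 in order), with no overlap and a log2 fold change of 0.16 ± 0.0232 (adjusted p = 1.45e-09, edgeR). *Atp1b2* had 97.7, 97.5 and 103 CPM in control and 113, 104 and 105 CPM in ethanol, a log2 fold change of 0.11 ± 0.0260 (adjusted p = 5.81e-04). *Hepacam* had 90.4, 97.3 and 92.5 CPM in control and 97.3, 99.6 and 102 CPM in ethanol, a log2 fold change of 0.09 ± 0.0264 (adjusted p = 0.00871). In *Hepacam* control replicate 5 (97.25 CPM) and ethanol replicate 4 (97.33 CPM) nearly touched. The call of *Hepacam* was lost without input control replicate 4 (adjusted p = 0.150), input control replicate 6 (0.0731) or input ethanol replicate 6 (0.116), and that of *Atp1b2* without input ethanol replicate 4 (0.0892). *Mlc1* had 447, 481 and 455 CPM in control and 484, 468 and 474 CPM in ethanol, and its log2 fold change of 0.04 ± 0.0224 did not pass (adjusted p = 0.252).

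*Kcnj10* in input had 43.9, 48.1 and 48.0 CPM in control and 46.7, 45.9 and 44.8 CPM in ethanol. *Gja1* had 78.6, 81.1 and 78.8 CPM in control and 77.7, 81.3 and 82.2 CPM in ethanol. *Slc4a4* had 145.1, 146.3 and 145.1 CPM in control and 140.1, 147.5 and 140.3 CPM in ethanol. None of these 3 passed, with 95% intervals of the log2 fold change of -0.10 to 0.04, -0.04 to 0.07 and -0.08 to 0.01. *Gjb6* had 0, 1 and 2 read pairs in control and 6, 7 and 2 in ethanol, of which only the first 2 ethanol dishes exceed the control counts. For ethanol in input 15.0% of all genes passed and 7.21% were higher with ethanol, groups did not overlap with ethanol higher in 14.0%, and 17.8% of genes that averaged 50 CPM or more were called higher. The 3 called genes are to be read against those shares. Of the 10 astrocyte markers, 3 were higher with ethanol in input (*Slc1a3*, *Slc1a2* and *Sox9*) and 5 lower (*Aldh1l1*, *Aldoc*, *Gfap*, *Glul* and *Slco1c1*). Of 8 oligodendrocyte lineage markers 3 were higher. *Aldh1l1* was lower by 0.13 on the log2 scale (-0.13 ± 0.0233, adjusted p = 9.38e-07), and the endothelial and mural sum went from 1302 to 1372 CPM to between 902 and 969 CPM.

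Whether the ethanol difference itself differed between IP and input was tested by an interaction term in all 18 libraries. The estimates of IP minus input were 0.08 ± 0.0389 for *Aqp4*, 0.07 ± 0.0386 for *Hepacam*, 0.07 ± 0.0474 for *Atp1b2* and 0.05 ± 0.0379 for *Mlc1* on the log2 scale, and no gene of the 9 passed (adjusted p from 0.830 to 1). Over all genes 0% passed by edgeR, with 1459 genes at an unadjusted p under 0.05, while DESeq2 called 4. With the dish as a block edgeR called 102 genes, none of them among the 9 (1 of the 9 had an unadjusted p under 0.05 without the block and 2 with it). A smaller effect in input than in IP was thus not shown for any of these genes.

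Of the 91 tested genes with the same roles, 24 were higher and 5 lower with ethanol in IP, with a median log2 fold change of 0.06 beside 0.01 over all genes tested and 0.17 for the 9 genes. After removal of trends of GC content and transcript length, the counts became 16 higher and 12 lower. In input 13 were higher and 5 lower, with a median of 0.04 beside -0.000918 over all genes and 0.09 for the 9 genes. Both medians of the 9 genes include the scarce *Gjb6* (0.66 in IP and 2.28 in input) and *Gjb2* (0.89 and 0.25), which were not called. Among the 7 well-read genes the middle value was that of *Mlc1*, 0.10 in IP and 0.04 in input. None of the 91 related genes passed a test against a fold of 1.2 in either fraction. Over all genes tested, 11.9% were higher with ethanol in IP and 7.21% in input. Among genes that averaged 50 CPM or more these shares were 24.8% and 17.8%. The counts by role below are to be read beside these shares.

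The dystrophin complex had 5 of 12 genes higher and none lower in IP, and 6 of 12 higher in input. *Dag1* had 866 ± 12.7 CPM in IP control and 967 ± 15.8 CPM in IP ethanol (SD, n = 6), a log2 fold change of 0.17 ± 0.0216 (adjusted p = 1.35e-08), and 0.12 ± 0.0221 in input. *Dtnb* (dystrobrevin beta) had 0.16 ± 0.0348 in IP and 0.13 ± 0.0438 in input. Of the 16 potassium channels, 2 were higher and 1 lower in IP, and 3 higher and 1 lower in input. *Kcnk10* (TREK2) was the lower one in both, with adjusted p of 0.00324 and 7.26e-04 and log2 fold changes of -0.12 ± 0.0308 in IP and -0.17 ± 0.0424 in input. *Kcnj4* (Kir2.3) was higher in both fractions, by 0.21 ± 0.0469 in IP (adjusted p = 4.46e-04) and 0.29 ± 0.0583 in input on the log2 scale, *Kcnk2* by 0.09 ± 0.0275 and 0.14 ± 0.0335. *Kcnj15* (Kir4.2), at 0.426 CPM in input control, was higher in input by 0.78 ± 0.263 (adjusted p = 0.0252).

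Of the partners of MLC1 and volume regulators, 4 were higher and 1 lower in IP, with *Gpr37* (a receptor of glia and neurons, 0.718 CPM in IP control) at 0.40 ± 0.151 (adjusted p = 0.0462), *Gprc5b* at 0.07 ± 0.0226 and *Cav1* (caveolin 1) at -0.13 ± 0.0261. In input none was higher and 2 were lower, with *Cav1* at -0.09 ± 0.0249 (adjusted p = 0.00251). Of the sodium pump genes, 5 were higher and 2 lower in IP and 2 higher in input.

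Of the acid-base and chloride transporters, 5 were higher and 1 lower in IP, and 1 higher and 2 lower in input. *Slc4a11* was higher in both fractions, by 0.23 ± 0.0794 in IP (adjusted p = 0.0284) and 0.31 ± 0.113 in input on the log2 scale. *Slc12a4* had log2 fold changes of IP over input of 0.31 ± 0.0192 and did not pass for ethanol. Of the 7 aquaporins other than *Aqp4*, 1 was higher with ethanol, *Aqp11*, by 0.30 ± 0.0849 in IP (adjusted p = 0.00685), and none passed in input. No connexin gene passed for ethanol. The 2 genes of that list that did were pannexins, which form channels of single membranes, *Panx2* at 0.43 ± 0.0939 in IP (adjusted p = 3.78e-04) and *Panx1* at 0.31 ± 0.0472 in IP and 0.23 ± 0.0610 in input (adjusted p = 7.61e-07 and 0.00198).

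Over the 11059 genes that averaged 5 CPM or more, the gene most like each in log2 CPM over the 18 libraries was *Osmr* for *Aqp4* (r = 0.993), *Ctnnal1* for *Kcnj10* (0.993), *Pfkm* for *Mlc1* (0.994), *Rtn1* for *Hepacam* (0.996), *Dpysl5* for *Atp1b2* (0.991), *Xylt1* for *Slc4a4* (0.990) and *Arel1* for *Gja1* (0.979). All 7 values rest on libraries that differ by fraction and treatment, so they describe a shared pattern over these groups and carry no p-value.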

How the data were processed

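Paired reads of stranded, rRNA-depleted total RNA libraries were trimmed with Trimmomatic and aligned to GRCm38 with STAR by the authors, who deposited raw read-pair counts per gene, neither normalized nor pooled. The table of unstranded counts equalled the single-library counts (0 differences). Pairs mapping to several places (on average 3.60%) or on overlapping genes (5.50%) are not counted, but no other counted gene overlaps the 9 genes. CPM and fold changes were computed here from these counts with edgeR 4.0.16 (R 4.3.3; TMM, estimateDisp, glmQLFit with robust estimation, glmQLFTest), and an adjusted p below 0.05 over the 24495 genes with at least 10 read pairs was called. The SE is the absolute log2 fold change divided by the square root of F.

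All 18 libraries entered the fit of IP vs. input (treatment as a term) and that of the interaction, and ethanol was fitted within each fraction. IP and input libraries of 1 dish are paired by their labels. Their deviations from group means correlated by 0.102 on average, and those of other dishes by -0.0205. Deviations within a group cancel out, so the second value depends on the first and is no separate baseline. Alternatives were DESeq2 1.42.0, total-count and RLE scaling, other filters, stranded counts, a fold of 1.2, the block, a GC content and length spline, subsets of dishes and single libraries left out. No library was a copy of another: chi-square over degrees of freedom was at least 4.49 for every pair within a group.

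The members and lists were chosen with earlier results of these data known. Named were the 9 genes, *Aldh1l1*, the gene most like each of the 7 well-read genes, the scarcest and most abundant cell-type markers and, per role list, the gene highest per kb and the called gene with the largest change in each comparison. Others were chosen after their values were seen, and some genes that this rule names are not reported here. Lengths and positions are those of GENCODE M21. The upstream sequences are from RefSeq (GRCm38.p6), which gave windows for 7 of the 9 genes, and equalled the genome in all 3 printed.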

Additional observations from a re-analysis of the deposited data

How the results depend on the processing

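The spread between libraries, counting error included, limits the 7 well-read genes, and the few read pairs limit *Gjb6* and *Gjb2*. Over DESeq2, both other scalings, other filters, stranded counts, GC content and length correction, the block and the subsets of dishes, each where it was run, the 9 genes gave 7 calls for IP vs. input, 4 for ethanol in IP and 3 for ethanol in input, although in IP replicates 4 to 6 the 4 called genes included *Kcnj10* (lower) and not *Mlc1*. Tested against a fold of 1.2, the calls among the 9 genes were 6, 0 and 0, and those among the related genes 38 (62 against no change), 0 (29) and 0 (18). In IP replicates 4 to 6 and 1 to 3 alone, 19 and 16 related genes were called for ethanol, with fewer libraries. Leaving out 1 library at a time gave 7 to 7, 4 to 4 and 2 to 3 calls among the 9 genes for IP vs. input, ethanol in IP and ethanol in input, 59 to 63, 24 to 30 and 12 to 15 among the related genes, and 0 to 0 for the interaction. No result changed sign while called. With the dish as replicate block, IP vs. input gave 7 calls among the 9 genes and 60 among the related genes, and the interaction gave 0 among the 9. Dishes of the 2 treatments have replicate numbers in common but no other link (deviations from group means correlated by -0.149 to 0.399 between same-numbered IP libraries). A block on the replicate number gave 4 and 3 calls among the 9 genes in IP and input. DESeq2 gave no adjusted p for *Gjb6* and *Gjb2* for ethanol or the interaction, and the 1 CPM filter removed both. Per kb of the exon union, *Aqp4* had 41.9, *Gja1* 9.51, *Atp1b2* 39.3 and *Slc4a4* 17.8 CPM per kb in IP control.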

Other observations

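The balance between pairs of these genes is given as ratios of CPM per kb within each library (mean ± SD, with no test). The ratio of *Aqp4* to *Kcnj10*, whose proteins share the astrocyte end foot, was 3.19 ± 0.129 in IP control (n = 6, 3.10 to 3.41) and 3.90 ± 0.255 in IP ethanol (n = 6, 3.51 to 4.26), with no overlap. It was 4.25 ± 0.175 in input control (n = 3, 4.14 to 4.46) and 4.83 ± 0.130 in input ethanol (n = 3, 4.69 to 4.93). The ratio of *Mlc1* to *Hepacam*, whose proteins form a complex, was 6.54 ± 0.131 in IP control and 6.22 ± 0.168 in IP ethanol, with overlapping ranges (6.30 to 6.68 and 6.00 to 6.49). In input it was 5.90 ± 0.0167 in control and 5.71 ± 0.204 in ethanol, again with overlapping ranges (5.879 to 5.908 and 5.565 to 5.943).

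Between 0% and 6.67% of the read pairs of each of the 9 genes lay on the strand opposite to the gene, the highest share being 4 read pairs of *Gjb6* beside 56 on its own strand. For the 7 well-read genes the share was 0.0395% to 0.534%, highest in *Gja1*.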
